A study of Mus musculus with 8 samples.

Results

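UDP-glucuronosyltransferases (UGTs) and cytosolic sulfotransferases (SULTs) are the enzymes that join a glucuronic acid or a sulfate group to drugs, bilirubin, steroids, thyroid hormones, catecholamines and bile acids. The kidney sequencing table held 48 genes of these families out of 55401 genes, found by their symbols: 21 *Ugt* genes (9 *Ugt1a*, 3 *Ugt2a*, 7 *Ugt2b* and 2 *Ugt3a*) and 27 *Sult* genes, 6 of them pseudogenes. Kidney RNA of 8 diabetic mice was compared, 4 given recombinant fibroblast growth factor 4 (rFGF4; mice 1, 2, 3 and 5) and 4 given vehicle (mice 2, 3, 4 and 5), to ask what rFGF4 changes in the diabetic kidney. The sample labels call the vehicle group the *db*/*db* model, mice that carry a defective leptin receptor, and the other group rFGF4 treatment. The study's text instead describes mice made diabetic with streptozotocin and names PBS as the vehicle, so the genotype is uncertain. For both models the study describes male mice that were injected intraperitoneally on alternate days under 1 regimen, without saying that the sequenced mice followed it. Every mouse was diabetic, so the data hold no healthy level to compare with. The labels give kidney. The study's methods name the cortex for the RNA of its real-time PCR and no region for the sequencing. In such bulk tissue lower RNA per cell cannot be told apart from fewer cells of a type.

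In glucuronidation, a UGT in the membrane of the endoplasmic reticulum moves glucuronic acid from UDP-glucuronate to its substrate. In sulfonation, a SULT in the cytosol moves sulfate from the donor PAPS. Both reactions make molecules more soluble in water, after which transporters carry the conjugates into urine or bile, and in the kidney this capacity is known mainly from the proximal tubule. The *Ugt1a* genes are a special case: they lie in a row on chromosome 1, each with a promoter and first exon of its own, and all splice to the same 4 downstream exons. The first exon encodes the part of the protein that recognises the substrate, and the shared exons encode the part that binds UDP-glucuronate.

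The values are FPKM (fragments counted on the exons of a gene, relative to exon length and sequencing depth). Differences are on the scale log2(FPKM + 1), rFGF4 minus vehicle, with the standard error (SE) of a limma fit over 15150 genes that reached 0.5 FPKM in 4 or more mice; this scale understates changes of low genes. The families were chosen by gene symbol, but with the rFGF4 and vehicle FPKM of this comparison already known, so their levels and differences are given as a description and not as a test. Of these 15150 genes, 0 had an adjusted p under 0.05 (limma, Benjamini-Hochberg), the smallest adjusted p being 0.918, and 700 (4.62%) had an unadjusted p under 0.05. With no filter, or without vehicle mouse 2, 4 or 5, 1 gene had an adjusted p under 0.05. At the study's threshold, a fold change of 1.5 or more whose unadjusted p is under 0.05, 165 genes were higher and 66 lower. The counts were 419 and 156 without rFGF4 mouse 5, 336 and 96 without vehicle mouse 5, 93 and 81 after scaling the libraries to a common median ratio, and 279 and 42 after scaling them to equal totals of nuclear transcripts. Summed FPKM ranged from 389404 to 552600 per mouse and mitochondrial transcripts made up 19.0% to 36.0% with rFGF4 and 24.4% to 38.4% with vehicle. The table holds no read counts, so the fragments behind a value are unknown.

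Cell type markers set 2 libraries apart. In rFGF4 mouse 1, the mean of log2(FPKM + 1) over 12 proximal tubule markers was 5.10, against 6.25 to 7.23 in the other 7 mice, and over 5 markers of the loop and distal tubule it was 5.48, against 6.77 to 7.57. All 12 proximal tubule markers were lowest in this mouse. Their summed FPKM ran from 688 to 2784 in rFGF4 mice and from 1787 to 3232 in vehicle mice, so the labelled tissue was present in every library. In vehicle mouse 5, *Igkc*, an immunoglobulin light chain, reached 22334 FPKM. Of 6 tested genes of 8 liver markers, 6 had positive differences and 1, *Serpina1a*, passed the study's threshold, while albumin differed by 0.17. The summed level of the 8 was 269 to 530.3 FPKM in rFGF4 mice and 176 to 298 in vehicle mice. *Synpo* passed among 4 podocyte markers, where 1.52% of all tested genes passed, and 0 did so among 12 proximal tubule, 5 loop and distal tubule, 6 collecting duct, 5 endothelial and 3 tested B and plasma cell markers. Beyond the values given below without a mouse, the part of these cell types in the results was not tested.

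The sequences around the splice into the shared exons show how alike the *Ugt1a* transcripts are. In the GENCODE M21 annotation of the mouse genome build GRCm38, exon 2 is chr1:88215044-88215175, exon 3 chr1:88215795-88215882, exon 4 chr1:88216138-88216357 and exon 5 starts at chr1:88218127, all on the plus strand. The 1311 bases of these exons that all 9 genes hold make up 57.9% to 59.9% of the annotated transcripts of 8 genes and 40.6% of that of *Ugt1a7c*. The last exon of *Ugt1a7c* runs 1005 bases past the common end, against 0 or 7 bases in the others. Below, the last 15 bases of each first exon are in lower case and the first 15 bases of exon 2 in capitals, 5′ to 3′, all of them coding, in their order along the chromosome. They are shown because a fragment that lies within the common part of the shared exons cannot tell one gene from another.
Ugt1a10: aagccactttccaagGAATTTGAAGCCTAT
Ugt1a9: aagtcactttccaagGAATTTGAAGCCTAT
Ugt1a8: aagccactttccaagGAATTTGAAGCCTAT
Ugt1a7c: aagccactttccaagGAATTTGAAGCCTAT
Ugt1a6b: ggaaagctgactcagGAATTTGAAGCCTAT
Ugt1a6a: ggaaagctgactcagGAATTTGAAGCCTAT
Ugt1a5: aagcccctctctcagGAATTTGAAGCCTAT
Ugt1a2: aagcccctctctcagGAATTTGAAGCCTAT
Ugt1a1: aagcccctatcccagGAATTTGAAGCCTAT

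These junctions fell into groups. *Ugt1a10*, *Ugt1a8* and *Ugt1a7c* ended their first exons with the same 15 bases, as did *Ugt1a6b* and *Ugt1a6a*, and *Ugt1a5* and *Ugt1a2*. Over the whole coding part of the first exon, *Ugt1a6a* and *Ugt1a6b* were 97.0% identical and *Ugt1a9* and *Ugt1a10* 91.2%. *Ugt1a5* and *Ugt1a2* were 81.4% identical there, and *Ugt1a1* was at most 58.2% identical to any other. The annotation also holds a *Ugt1a7c* transcript that starts in the leader exon of *Ugt1a6b* at chr1:88103252-88103378 and uses the coding exon of *Ugt1a6a* at chr1:88138473-88139331. A *Ugt1a7c* level can therefore include fragments of the *Ugt1a6a* exon. The map of the locus shows these first exons with their distances to exon 2.

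**Figure D1:**
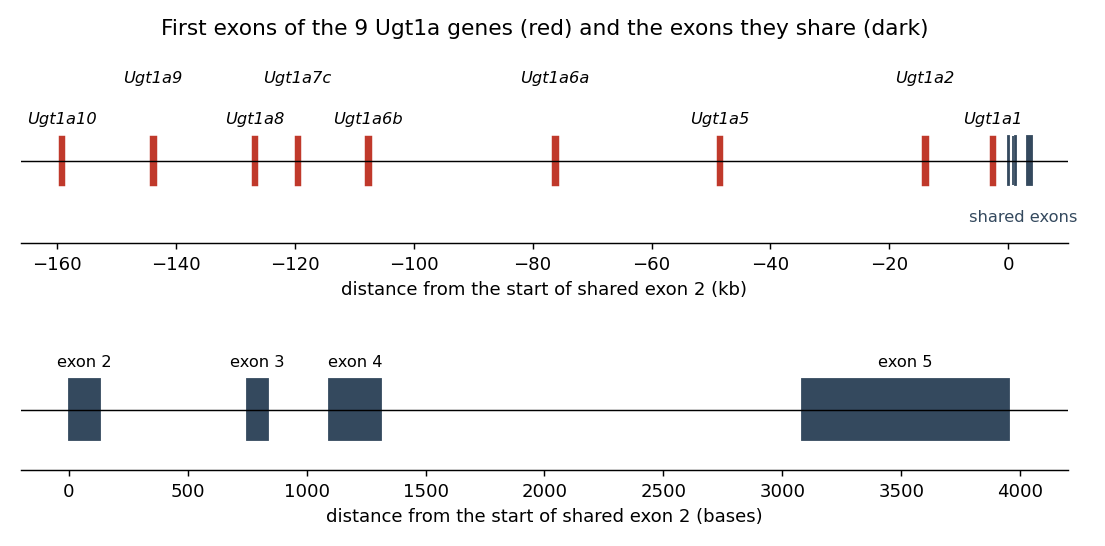
The first exons of the 9 *Ugt1a* genes (red) and their 4 shared exons (dark), by distance from the start of exon 2 in kilobases (top) and, for the shared exons alone, in bases (bottom). The first exon of *Ugt1a10* ends 158.7 kb before exon 2 and that of *Ugt1a1* 2.17 kb before it.

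The *Ugt1a* genes, taken as 1 locus, were the most abundant *Ugt* family in 8 of 8 mice. Their sum was 304, 598, 333 and 475 FPKM in rFGF4 mice 1, 2, 3 and 5, and 556, 343, 599.7 and 445 FPKM in vehicle mice 2, 3, 4 and 5. Both groups held low and high mice and they overlapped. The mean was 428 ± 136 (SD, n = 4) with rFGF4 and 486 ± 115 (SD, n = 4) with vehicle. The difference of the sum was -0.20 (SE 0.29), which is smaller than its SE. Leaving out single mice gave -0.38 (without rFGF4 mouse 2) to -0.06 (without rFGF4 mouse 1, the library with low tubule markers). In the 6 mice whose numbers occur in both groups, 2, 3 and 5, the sign turned, at 0.05. That set is no pairing, and it leaves out rFGF4 mouse 1 and vehicle mouse 4, the lowest and the highest of the 8. The highest mouse had 1.97 times the level of the lowest, and the coefficient of variation over the 8 mice was 26.5%. The locus took 43.1% to 74.4% of all *Ugt* FPKM.

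Beneath this sum, single *Ugt1a* genes varied far more, and 3 of them were above 10 FPKM in some mice and below 1 FPKM in others. *Ugt1a9*, named for the human enzyme that conjugates phenols in kidney, was at 45.3, 111 and 56.2 FPKM in rFGF4 mice 1, 2 and 3 and at 0.0388 in rFGF4 mouse 5. In vehicle mice 2, 3, 4 and 5 it was at 0.141, 0.0366, 0.170 and 0.0352 FPKM. So 3 of 4 rFGF4 mice were above all vehicle mice, and the fourth lay within the vehicle range. *Ugt1a9* missed the filter, having reached 0.5 FPKM in 3 mice only. Without a filter its difference was 4.43, past the study's threshold, which then called 0.751% of 30244 genes, 0.519% as higher. A filter on a mean of 1 FPKM also called it, with 1.58% of 13314 genes, 1.16% as higher, but *Ugt1a9* reached that mean through its rFGF4 mice alone, so this call adds nothing to its values. *Ugt1a10*, its closest relative in sequence, did not share this pattern.

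*Ugt1a6b* and *Ugt1a6a* belong to the UGT1A6 type, known for planar phenols such as paracetamol. *Ugt1a6b* was at 0.371, 0.4996, 0.474 and 0.277 FPKM in rFGF4 mice 1, 2, 3 and 5. It was at 289 FPKM in vehicle mouse 2 and at 0.264, 0.125 and 0.321 in vehicle mice 3, 4 and 5. A single mouse therefore carried the whole vehicle mean of 72.3 ± 144 (SD, n = 4). *Ugt1a6a* was at 29.9, 76.9, 46.1 and 50.3 FPKM in rFGF4 mice 1, 2, 3 and 5, and at 9.27, 2.46, 92.8 and 98.8 in vehicle mice 2, 3, 4 and 5. Its vehicle mice split into a low and a high pair around the rFGF4 mice. Its difference was 1.03 (SE 1.05). Without vehicle mouse 3 it was 0.10, without vehicle mouse 2 0.62, and without vehicle mouse 4 or 5 1.69 or 1.72. The sum of both genes ran from 2.72 FPKM in vehicle mouse 3 to 298 in vehicle mouse 2.

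*Ugt1a5* was at 50.9, 79.7, 0.0473 and 65.3 FPKM in rFGF4 mice 1, 2, 3 and 5, and at 79.9, 0.0333, 47.2 and 71.9 in vehicle mice 2, 3, 4 and 5. One mouse in each group was near 0 and the others were alike, so that the difference was -0.00 with an SE of 1.81. It was 1.49 without rFGF4 mouse 3 and -1.501 without vehicle mouse 3. Other *Ugt1a* genes moved both ways in these low mice. *Ugt1a7c* was at its highest in rFGF4 mouse 3, at 76.9 FPKM, and *Ugt1a1* in vehicle mouse 3, at 113 FPKM, whereas *Ugt1a6a* and *Ugt1a7c* were at their lowest in vehicle mouse 3. How the fragments of the shared exons were divided among the genes cannot be seen in the table, and its part in these values was not tested.

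Among genes that reached 10 FPKM in any mouse, a range of more than 100 times between the highest and lowest mouse was found for 242 of 5737 (4.22%), a rule chosen after the values were seen. It held for 3 of 15 *Ugt* and *Sult* genes that reached this level, and these 3 were *Ugt1a9*, *Ugt1a6b* and *Ugt1a5*, of 8 *Ugt1a* genes that reached it. Their highest mice had 3139, 2311 and 2400 times the level of their lowest. The median SE of the difference was 0.51 for the 6 tested *Ugt1a* genes, 0.28 for the other 12 tested *Ugt* and *Sult* genes, and 0.19 over all tested genes. These sets were not matched for level, and the log2(FPKM + 1) scale narrows the spread of low genes.

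**Figure D2:**
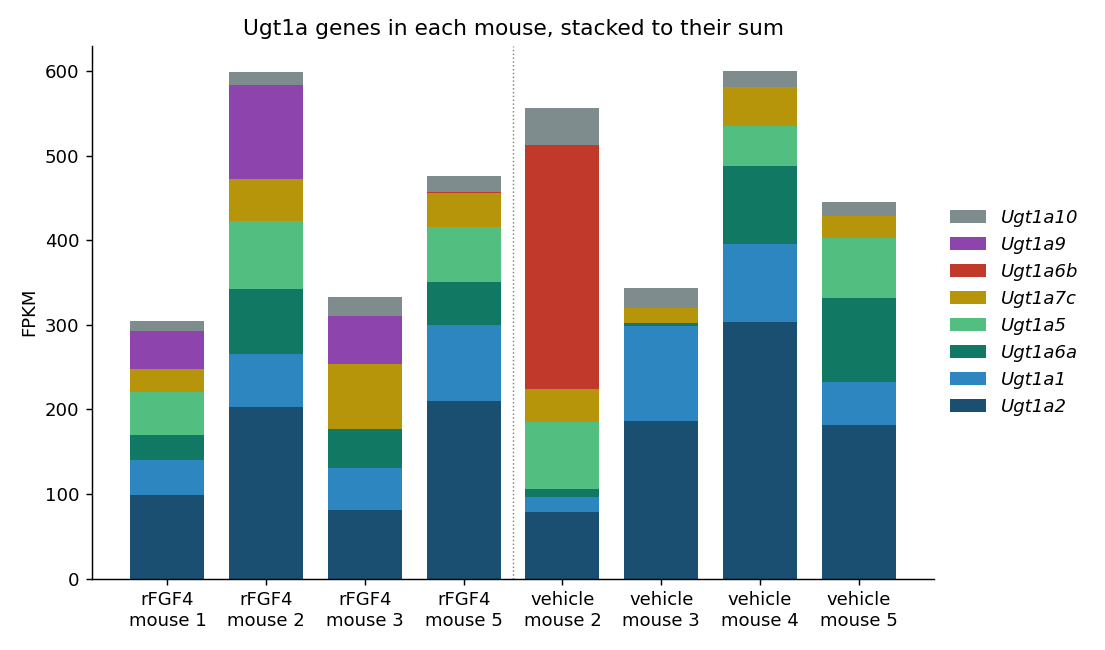
FPKM of the *Ugt1a* genes in each mouse, stacked from 0 to their sum. *Ugt1a9* (purple) was visible in rFGF4 mice 1, 2 and 3, *Ugt1a6b* (red) took 51.9% of vehicle mouse 2, and *Ugt1a5* (light green) was missing in rFGF4 mouse 3 and vehicle mouse 3, while the sums stayed between 304 and 599.7 FPKM.

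The remaining *Ugt1a* genes, apart from *Ugt1a8*, were present in every mouse. *Ugt1a2* was at 99.4, 203, 81.4 and 209.8 FPKM in rFGF4 mice 1, 2, 3 and 5, and at 78.8, 187, 303 and 182 in vehicle mice 2, 3, 4 and 5. It led the locus in 7 of 8 mice, with 24.5% to 54.4% of the sum, and both groups spanned most of its range. *Ugt1a1*, the enzyme that conjugates bilirubin, was at 40.3, 62.4, 49.2 and 90.3 FPKM with rFGF4 and at 17.5, 113, 92.3 and 50.6 with vehicle, in the same order of mice. The vehicle mice held both its lowest and its highest value. The differences were -0.31 (SE 0.46) for *Ugt1a2* and 0.06 (SE 0.55) for *Ugt1a1*. That of *Ugt1a2* was -0.67 without vehicle mouse 2 and -0.03 without vehicle mouse 4. The sign of *Ugt1a1* turned with the mouse left out, from -0.48 without vehicle mouse 2 to 0.40 without vehicle mouse 3.

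*Ugt1a7c* was at 26.9, 49.8, 76.9 and 40.6 FPKM in rFGF4 mice 1, 2, 3 and 5, and at 38.5, 18.2, 45.4 and 25.2 in vehicle mice 2, 3, 4 and 5. Its 2 highest mice had rFGF4 and its 2 lowest vehicle, with a difference of 0.58 (SE 0.37). Without rFGF4 mouse 1 the difference was 0.82 and past the study's threshold, and without rFGF4 mouse 3 or vehicle mouse 3 it was 0.33 or 0.35. In the 6 mice numbered 2, 3 and 5 it was 1.02 and past the threshold, with or without a block for mouse numbers. Left out there are rFGF4 mouse 1, the lowest with rFGF4, and vehicle mouse 4, the highest with vehicle. *Ugt1a10* was at 11.1, 15.3, 22.6 and 18.8 FPKM with rFGF4 and at 43.0, 22.8, 18.6 and 16.3 with vehicle, so its 2 lowest mice had rFGF4. Its difference was -0.49 (SE 0.32), and -0.21 without vehicle mouse 2. *Ugt1a8* was listed at 0 in all 8 mice. Of the 6 tested *Ugt1a* genes, 3 differences were positive and 3 negative, and 0 passed the study's threshold.

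Outside the locus, *Ugt2b34* was the gene of these families past the study's threshold, 1 higher and 0 lower of 18 tested. Of all 15150 tested genes, 1.52% passed, 1.09% as higher and 0.436% as lower. *Ugt2b34* was at 5.40, 4.85, 3.71 and 3.68 FPKM in rFGF4 mice 1, 2, 3 and 5, and at 2.09, 1.39, 1.69 and 4.57 in vehicle mice 2, 3, 4 and 5. Vehicle mouse 5 lay among the rFGF4 mice, so the groups overlapped, and the other vehicle mice lay below them. The mean was 4.41 ± 0.856 with rFGF4 and 2.44 ± 1.45 with vehicle (SD, n = 4 each), a difference of 0.72 (SE 0.27). It stayed between 0.58 and 0.98 with 1 mouse left out, and the threshold was missed without rFGF4 mouse 1 or 2 or vehicle mouse 2, 3 or 4. In the 6 mice numbered 2, 3 and 5 it was 0.55 and missed the threshold, with or without a block for mouse numbers. The mitochondrial share was 19.0%, 24.7%, 29.8% and 36.0% in the rFGF4 mice and 38.4%, 34.2%, 37.2% and 24.4% in the vehicle mice, in the same order. The 3 mice with the lowest share had the 3 highest *Ugt2b34* levels. With libraries scaled to equal nuclear totals the difference was 0.80, still past the threshold, and any other part of this share was not tested. At 3.42 FPKM over all mice it was the least abundant of the 4 tested *Ugt2b* genes.

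The UGT2B enzymes are known for conjugating steroids and bile acids. Their genes lie with the *Ugt2a* genes at chr5:86889767-87490871. *Ugt2b38*, the most abundant, was at 25.4, 44.7, 112 and 112 FPKM in rFGF4 mice 1, 2, 3 and 5, and at 69.9, 77.4, 131 and 62.2 in vehicle mice 2, 3, 4 and 5. Its rFGF4 mice fell into a low pair, below all vehicle mice, and a high pair within their range. *Ugt2b37* was at 20.3, 12.2, 32.5 and 30.9 FPKM with rFGF4 and at 30.0, 25.9, 35.7 and 43.4 with vehicle, with the same 2 mice lowest.

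*Ugt2b5* was at 4.996, 2.81, 7.21 and 8.65 FPKM with rFGF4 and at 5.70, 4.97, 7.90 and 8.37 with vehicle, and its groups overlapped over most of their range. The differences were -0.40 (SE 0.49) for *Ugt2b38*, -0.54 (SE 0.31) for *Ugt2b37* and -0.22 (SE 0.30) for *Ugt2b5*. Without rFGF4 mouse 1 that of *Ugt2b38* was 0.02, and without rFGF4 mouse 2 that of *Ugt2b37* was -0.27 and that of *Ugt2b5* 0.04. The coding sequences of these 3 genes were 94.1% to 97.0% identical, whereas *Ugt2b34* was at most 74.6% identical to another *Ugt2b* gene. How reads were divided among the 3 is therefore uncertain, and their sum was 103 ± 55.7 FPKM with rFGF4 and 126 ± 32.9 with vehicle (SD, n = 4 each). *Ugt2b1*, *Ugt2b35* and *Ugt2b36* stayed below 0.1 FPKM in every mouse, and of the *Ugt2a* genes *Ugt2a3* reached 0.396 while *Ugt2a1* and *Ugt2a2* were listed at 0.

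The UGT3A enzymes differ from the others in using UDP sugars other than UDP-glucuronate. *Ugt3a2* was at 40.7, 188, 240.3 and 211 FPKM in rFGF4 mice 1, 2, 3 and 5, and at 219, 133, 226 and 120.3 in vehicle mice 2, 3, 4 and 5. *Ugt3a1* was at 7.75, 33.3, 42.9 and 39.5 FPKM with rFGF4 and at 43.2, 32.8, 44.3 and 20.3 with vehicle. Both genes were lowest in rFGF4 mouse 1, far below the other 3 rFGF4 mice, which lay in the upper part of the vehicle range or, for *Ugt3a2* in mouse 3, above it. The differences were -0.25 (SE 0.55) and -0.36 (SE 0.52), and without that mouse they were 0.34 and 0.19. Their coding sequences, in neighbouring genes at chr15:9276888-9370955, were 93.3% identical, and their sum was 201 ± 105 FPKM with rFGF4 and 209.6 ± 66.1 with vehicle (SD, n = 4 each).

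**Figure D3:**
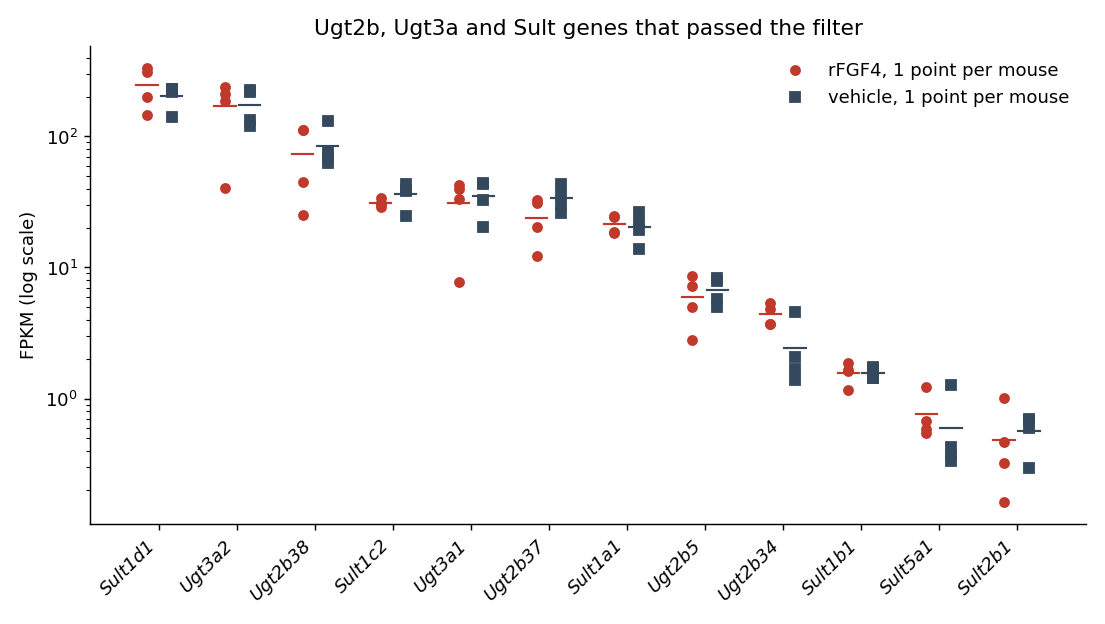
FPKM of the 12 tested *Ugt2b*, *Ugt3a* and *Sult* genes on a log scale, 1 point per mouse, with rFGF4 as circles and vehicle as squares and the group mean as a line. The groups overlap for all 12 genes, and *Ugt3a1* and *Ugt3a2* each have 1 low rFGF4 mouse, at 7.75 and 40.7 FPKM.

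Of the sulfotransferases, *Sult1d1* made up most of the level. SULT1D1 is known for sulfonating catecholamines and related small molecules in mouse kidney. *Sult1d1* was at 146, 310.4, 335 and 201 FPKM in rFGF4 mice 1, 2, 3 and 5, and at 229, 230.3, 217 and 139.8 in vehicle mice 2, 3, 4 and 5. Its 2 highest mice had rFGF4, its lowest was vehicle mouse 5, and the groups overlapped. The mean was 248 ± 89.8 with rFGF4 and 204 ± 43.3 with vehicle (SD, n = 4 each), a difference of 0.23 (SE 0.30) that was 0.06 without vehicle mouse 5 and 0.46 without rFGF4 mouse 1.

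*Sult1c2*, a phenol sulfotransferase of kidney and stomach, was among the steadiest genes. It was at 33.7, 30.6, 31.0 and 28.8 FPKM in rFGF4 mice 1, 2, 3 and 5, and at 43.2, 24.6, 38.6 and 38.9 in vehicle mice 2, 3, 4 and 5. The 4 rFGF4 mice lay close together inside the wider vehicle range, with a difference of -0.19 (SE 0.18) that ran from -0.36 without vehicle mouse 3 to -0.10 without vehicle mouse 2. *Sult1a1*, the general phenol sulfotransferase, was at 24.7, 24.1, 18.8 and 18.5 FPKM with rFGF4 and at 19.2, 26.7, 13.8 and 22.1 with vehicle. Its rFGF4 mice again lay inside the vehicle range, and the difference was 0.09 (SE 0.20), or -0.07 without vehicle mouse 4 and 0.23 without vehicle mouse 3. *Sult1a1* overlaps exons of *Sgf29* in the annotation, and reads of the 2 genes may be mixed.

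*Sult1b1*, known for thyroid hormones, was at 1.63, 1.86, 1.64 and 1.17 FPKM in rFGF4 mice 1, 2, 3 and 5, and at 1.67, 1.74, 1.44 and 1.42 in vehicle mice 2, 3, 4 and 5. It varied least of all, with a coefficient of variation of 13.8% over the 8 mice and a difference of -0.00 (SE 0.12). *Sult2b1*, known for cholesterol and other hydroxysteroids, was at 1.001, 0.462, 0.162 and 0.321 FPKM with rFGF4 and at 0.696, 0.598, 0.294 and 0.683 with vehicle. The rFGF4 mice held both its highest and its lowest value, and the difference was -0.10 (SE 0.18), or -0.25 without rFGF4 mouse 1 and 0.01 without rFGF4 mouse 3. It overlaps exons of *Lmtk3* and *Gm31597*. *Sult5a1* was at 1.22, 0.583, 0.674 and 0.544 FPKM with rFGF4 and at 0.331, 0.425, 0.371 and 1.28 with vehicle. Both extremes were vehicle mice, and the difference was 0.16 (SE 0.20), or 0.04 without rFGF4 mouse 1 and 0.34 without vehicle mouse 5. Summed over all *Sult* genes the level was 305 ± 87.4 FPKM with rFGF4 and 264 ± 40.5 with vehicle (SD, n = 4 each), and 2 rFGF4 mice were above all vehicle mice.

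Much of the sulfotransferase family was low or not seen in these kidneys. The SULT2A enzymes conjugate bile acids and dehydroepiandrosterone in liver, and of 12 *Sult2a* genes and pseudogenes 10 were listed at 0 in every mouse, with a highest value of 0.264 FPKM. *Sult1e1*, the oestrogen sulfotransferase, was above 0 in 1 mouse, at 0.219 FPKM. *Sult4a1*, mainly a brain gene, was at 1.62, 0.821, 0.330 and 0.0677 FPKM in rFGF4 mice 1, 2, 3 and 5 and at most 0.340 in vehicle mice. In all, 16 of the 48 genes were listed at 0 in all 8 mice, and 18 passed the filter and were tested. Of the 28 genes that were neither tested nor at a mean of 1 FPKM, 27 were below 0.5 FPKM in every mouse, *Sult4a1* being the exception.

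Over the 18 tested genes, 7 differences were positive and 11 negative. Their median was -0.05, against 0.09 over all 15150 tested genes. This order turned without rFGF4 mouse 1, at 0.02 against 0.01, and in the 6 mice numbered 2, 3 and 5, at 0.05 against -0.02. The set of 6 also lacks rFGF4 mouse 1, besides vehicle mouse 4. The groups did not overlap for 0 of the 18, against 3.33% of all tested genes. The SE was widest for *Ugt1a5* and *Ugt1a6a*, as the plot of differences shows.

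**Figure D4:**
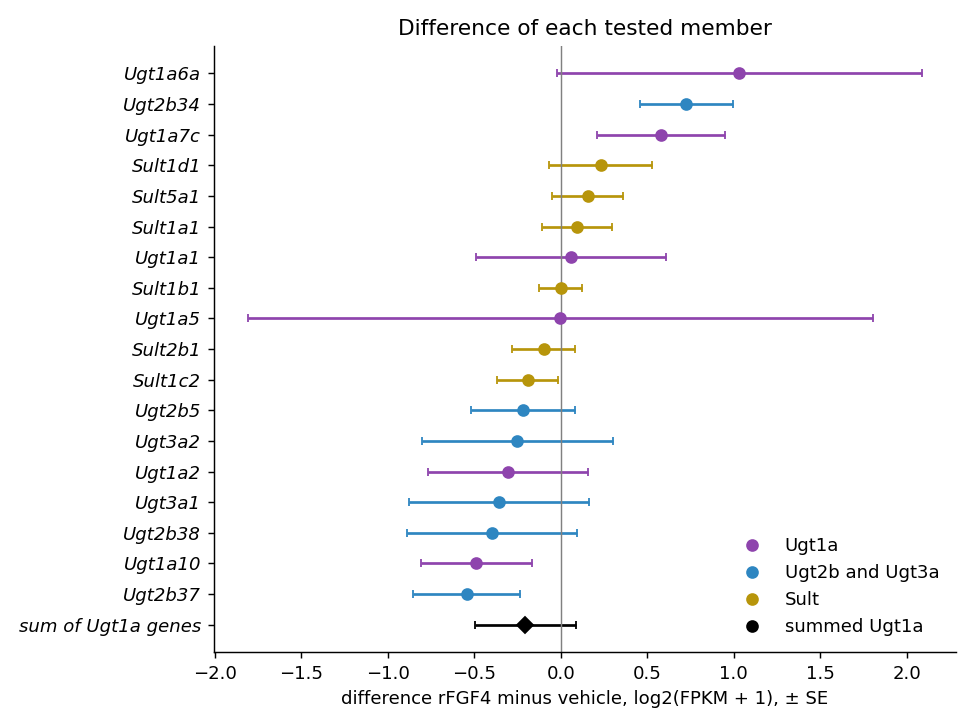
Difference of each tested gene, rFGF4 minus vehicle on the scale log2(FPKM + 1), with its SE as the bar (limma), and of the summed *Ugt1a* genes (black, SE from the spread of the 4 mice per group). The point of *Ugt2b34* lies at 0.72 and the widest bar, that of *Ugt1a5*, is 1.81 to each side.

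The *Ugt* family sums and the proximal tubule markers were low together in rFGF4 mouse 1. Single genes went both ways. Of the 18 tested genes, 4 were lowest in this mouse, while *Ugt2b34* (5.40 FPKM) and *Sult2b1* (1.001 FPKM) were highest in it. The *Ugt3a*, *Ugt2b* and *Ugt1a* sums were all lowest in rFGF4 mouse 1, at 48.4, 56.1 and 304 FPKM, the mouse in which the markers were lowest. The next lowest mouse was at 141 FPKM for *Ugt3a* but at 64.6 for *Ugt2b* and 333 for *Ugt1a*. The *Sult* sum was lowest in vehicle mouse 5, at 205 FPKM, and next lowest in rFGF4 mouse 1, at 210.2. The values without that mouse are given above for the genes whose difference changed sign, and for the sums the part of the markers was not tested.

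**Figure D5:**
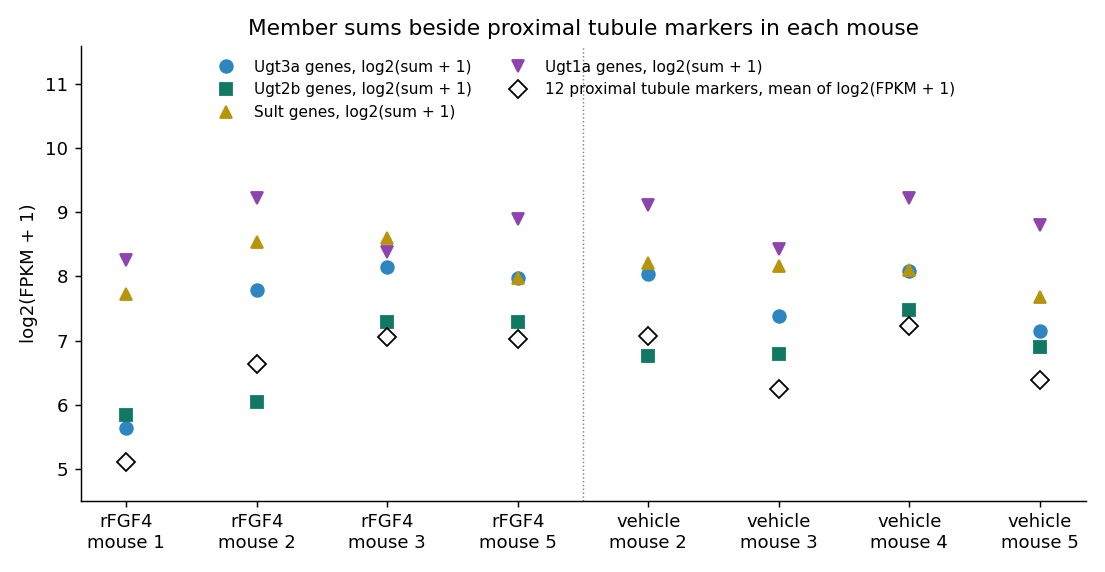
Levels in each mouse on a log2 scale, as log2(sum of FPKM + 1) for the *Ugt1a*, *Ugt2b*, *Ugt3a* and *Sult* genes (filled) and as the mean of log2(FPKM + 1) over 12 proximal tubule markers (open diamonds). In rFGF4 mouse 1 the marker mean is 5.10 and the *Ugt3a* point the lowest of the 8 mice.

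Genes that supply the donors, remove glucuronic acid or sulfate from various molecules, or move the products were set beside the enzymes, 53 tested genes in 6 lists. Over all tested genes 1.52% passed the study's threshold, so a count of 0 in lists as short as these says little. Of 7 genes for the supply of UDP-glucuronate, 0 passed it in either direction. *Ugp2*, which makes UDP-glucose, was the most abundant, at 40.5 ± 0.80 FPKM with rFGF4 and 40.0 ± 3.78 with vehicle (SD, n = 4 each). Of 12 tested genes for PAPS and sulfate, 0 passed. The most abundant was *Cdo1*, which oxidises cysteine on the way to sulfate, at 103 ± 45.7 and 79.9 ± 15.02 FPKM, with rFGF4 mouse 2 at 172. Of 5 tested genes that remove glucuronic acid or sulfate, 0 passed, with *Arsb*, a lysosomal sulfatase, the most abundant at 19.0 ± 5.72 and 15.9 ± 2.23 FPKM. The steroid sulfatase gene *Sts*, also listed, was not found by its symbol. Of 8 transporters of conjugates, 0 passed, and *Slc22a8*, an organic anion uptake carrier of the proximal tubule, led with 139.4 ± 59.4 and 139.6 ± 22.3 FPKM.

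The regulators known to drive *Ugt* and *Sult* genes gave 1 gene past the threshold, as higher, of 13 tested, where 1.09% of all tested genes were called higher. *Hnf4a*, a factor of proximal tubule and liver identity, was the most abundant, at 114 ± 30.1 FPKM with rFGF4 and 106 ± 20.1 with vehicle (SD, n = 4 each). *Ppara*, a fatty acid receptor known to induce some *Ugt1a* genes, was at 3.27, 7.86, 15.6 and 6.88 FPKM in rFGF4 mice 1, 2, 3 and 5, and at 3.26, 0.991, 4.63 and 2.19 in vehicle mice 2, 3, 4 and 5. All but 1 of the rFGF4 mice were above all vehicle mice, and the groups overlapped. Its difference was 1.26 (SE 0.45), with an adjusted p of 0.918 in limma, and the threshold was missed without rFGF4 mouse 3, without vehicle mouse 3 and after median ratio scaling. *Rxra*, the partner of many nuclear receptors, was at 16.5, 22.4, 25.1 and 16.1 FPKM with rFGF4 and at 14.8, 13.7, 15.04 and 13.8 with vehicle. Its groups did not overlap, as was so for 3.33% of all tested genes, but its difference of 0.43 (SE 0.16) was under a fold change of 1.5.

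Targets shared with *Ugt1a* genes by the aryl hydrocarbon receptor and NRF2 were tested for 8 of 11 genes. *Cyp1a1*, *Cyp1a2* and *Ahrr* missed the filter. The 8 tested genes gave 7 positive differences and 1 negative, and 0 passed, where 1.52% of all tested genes did. *Nqo1*, the most abundant of this list, was at 72.4 ± 32.1 FPKM with rFGF4 and 62.2 ± 18.6 with vehicle (SD, n = 4 each). *Txnrd1*, a thioredoxin reductase, was at 21.5, 33.0, 26.7 and 17.1 FPKM with rFGF4 and at 16.01, 15.2, 16.3 and 15.1 with vehicle, without overlap, as for 3.33% of all tested genes. Its difference of 0.58 (SE 0.19) lay just under a fold change of 1.5. It passed the study's threshold with a pseudocount of 0.1, with equal nuclear totals, with a block for mouse numbers, in the same 6 mice without that block, and without rFGF4 mouse 1 or 5 or vehicle mouse 2 or 4.

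The promoters of the enzymes, taken from RefSeq on GRCm38.p6 as a window before and just after the transcription start, were searched on both strands for motifs of such regulators. The aryl hydrocarbon receptor core GCGTG was found in 6 of 39 promoters of 36 genes, those of *Sult1b1*, *Sult1d1*, *Sult2b1*, *Ugt1a5* and *Ugt1a8*, against 32.4% of 32851 promoters. It was in 2 of 8 *Ugt1a* promoters. The NRF2 motif TGACNNNGC, which can share its last 2 bases with that core, was in 0 of the 39, against 12.4% of all. A full HNF1 palindrome and a nuclear receptor direct repeat, both rare, were each in 0 of the 39, against 0.00913% and 0.0396% of all.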

How the data were processed

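Paired-end, poly(A)-selected kidney libraries were sequenced by the authors, who assembled mapped reads with StringTie, merged transcripts with gffcompare and deposited FPKM per gene for 55401 genes in 8 libraries. The submitters' notes also name HISAT2 2.0, StringTie 1.3.0, Bowtie 0.12.2 and the build mm8, with no role given, and the labels and the methods name different sequencers. The table also holds the authors' own fold changes, p-values and q-values, which were not used. Values of 0.0001 were read as 0. No column of a sample was left unmapped.

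The test named in the study's methods needs counts, so log2(FPKM + 1) of genes at 0.5 FPKM or more in at least 4 libraries was compared with limma 3.58.1 (trend) in R 4.3.3, a procedure tested on simulated data. The study's threshold was kept. Genes were found by symbol, and identifiers of 55141 genes were in GENCODE M21, which gave positions and sequences. Promoters of chromosome 18 were left out. Genes with a mean of at least 1 FPKM, or tested, are given mouse by mouse. Of the pathway lists, the most abundant gene and those past the threshold or without overlap are named. The genes and lists were chosen with earlier results of these data known. The alternatives were another pseudocount, filter, scaling or fold, each mouse left out, and a block for mouse numbers. *Ugt1a* as 1 sum, and the 6 mice without the block, were added after seeing the data.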

Additional observations from a re-analysis of the deposited data

Results flagged for a closer look

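In 10 of 68 groups of 4 mice examined, 1 mouse lay so far from the others that its gap to the nearest exceeded Dixon's 95% limit as a share of the group's range. Gaps of genes and family sums were taken on the scale log2(FPKM + 1), and that of the summed FPKM of all genes on FPKM. On FPKM throughout, 5 of the 10 passed the limit (*Ugt1a6b*, *Sult1d1*, *Sult5a1*, *Cdo1* and the summed FPKM), while *Ugt1a5* in both groups, *Ugt3a1*, *Ugt3a2* and the *Ugt3a* sum were at 0.591 to 0.736, and the *Ugt2b* sum in vehicle mouse 4 passed on FPKM alone (0.839, against 0.802 on the log2 scale). Chance alone gives about 1 such group in 20, and the groups are not independent. Of the *Ugt1a* genes, *Ugt1a6b* had a gap of 0.971 of the range in vehicle mouse 2, the highest of its group. *Ugt1a5* had gaps of 0.898 in rFGF4 mouse 3 and 0.881 in vehicle mouse 3, the lowest of their groups. In rFGF4 mouse 1, *Ugt3a1* (0.848), *Ugt3a2* (0.860) and the *Ugt3a* sum (0.859) were low, and this mouse also had the lowest proximal tubule markers.

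In vehicle mouse 5, *Sult1d1* was low (0.883) and *Sult5a1* high (0.872), and the summed FPKM of all genes was low (0.840). *Cdo1* was high in rFGF4 mouse 2 (0.852).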

How the results depend on the processing

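The number of *Ugt* and *Sult* genes past the study's threshold, 1 as reported, was 2 with no filter and 2 with a filter on a mean of 1 FPKM (*Ugt1a9* besides *Ugt2b34*, the former passing the mean filter through its rFGF4 mice alone), 0 at a fold change of 2, and 0 to 1 with each mouse left out. Without rFGF4 mouse 1, and in the 6 mice numbered 2, 3 and 5 with or without the block, the gene was *Ugt1a7c* in place of *Ugt2b34*. Among the pathway genes the number, also 1, was 2 with a pseudocount of 0.1, 0 after median ratio scaling, 4 with equal nuclear totals, 4 with the replicate block, 3 in the same 6 mice without it, and 0 to 5 with each mouse left out. Without rFGF4 mouse 5 it was 5 (*Abcc4*, *Nfe2l2*, *Ppara*, *Slc13a1*, *Txnrd1*). The count over all tested genes, 231 as reported, rose as well, to 575 without rFGF4 mouse 5, 321 with equal nuclear totals and 263 with the block. The cause of these changes was not tested. The median difference was -0.17 to 0.02 with a mouse left out, 0.05 in the 6 mice and -0.19 with the *Ugt1a* genes as 1 sum. The summed *Ugt1a* difference was -0.38 to 0.05 over all alternatives. Both moved by less than the spread between mice. Of 300 values of the named genes 8 lost a call, all of *Ugt2b34*, and 3 gained one, all of *Ugt1a7c*. Mice with the same number did not deviate together (correlations of -0.23, -0.16 and -0.39), so the block is no pairing. Without counts, the precision set by depth is unknown.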
